A study of Mus musculus with 8 samples.

Results

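Secreted Wnt antagonists are represented here by 8 genes, namely the secreted Frizzled-related proteins Sfrp1, Sfrp2, Sfrp4 and Sfrp5, their relative Frzb, the Dickkopf proteins Dkk2 and Dkk3, and the Wnt inhibitory factor Wif1. The 8 genes were looked up by symbol among 18193 genes that had at least 1 probe set assigned to a single gene, and all 8 were found, with 15 probe sets between them. The probe set that stands for a gene was chosen by its mean over all 8 arrays, the highest being taken whatever the genotype. The list itself was drawn up with earlier results of these arrays known, so the counts over its members are descriptions and carry no test of the list.

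The tissue was subcutaneous fat of the groin (inguinal white adipose tissue), taken at 12 weeks of age from male littermates on a C57BL/6 background that were fed standard chow. The 4 knockout mice (KO) were deficient in Lpar4, an X-linked receptor for lysophosphatidic acid (genotype Lpar4 -/Y), and the 4 others were wild type (WT). Each mouse gave its own 3' expression array, made from 100 ng of total RNA of whole tissue. The labels do not say which part of Lpar4 was deleted or that the deletion was limited to a cell type.

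Wnt proteins are secreted lipid-modified ligands that bind Frizzled receptors together with the co-receptors LRP5 and LRP6 and thereby stabilise beta-catenin. Secreted Frizzled-related proteins and WIF1 bind Wnt ligands outside the cell, whereas Dickkopf proteins such as DKK2 bind the LRP co-receptors; DKK3 is a divergent family member that is not known to act in that way. In fat, Wnt and beta-catenin signalling holds precursor cells back from becoming adipocytes, and SFRP5 and SFRP1 are known as products of adipose tissue.

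All values are log2 signals as the authors deposited them, and differences are KO minus WT, so that a difference of -1 means a halved signal. The signal of different probe sets depends on the probes, so levels are compared between mice and not between genes. A rank among probe sets is given for Dkk2 as a limit only. Adipocyte markers were bright in every array, with a mean over the 8 measured of 10 listed genes of 12.2 to 12.3 in KO and 12.2 in WT. Of 7 epithelial markers 0 varied, which does not show that they were absent. Of 3 Lpar4 probe sets, 1452424_at ran from 5.74 to 5.91 in KO and from 6.80 to 7.04 in WT, while the KO arrays of the other two lay above all WT arrays. The probe sets therefore did not all check the genotype labels in the same direction. A total of 78.7% of all probe sets had an SD below 0.01 over the 8 arrays and are called near constant, the others varying. The mice are separate animals, but the labels do not give litters or dates of processing.

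Of the 8 genes, Sfrp5 was lower in KO and passed the test, Dkk2 was lower without overlap of the genotypes but did not pass, and Sfrp1, Sfrp2 and Sfrp4 overlapped between the genotypes. Dkk3, Frzb and Wif1 were near constant. With limma and Benjamini-Hochberg adjustment over all genes at a threshold of 0.05, 1 of the 8 genes passed as lower and 0 as higher. Over all 18193 genes, 1.64% passed as lower and 2.39% as higher. At an unadjusted p under 0.05 there were 2 of the 8 genes, Sfrp5 and Dkk2, both lower, a share close to the 22.9% of all genes (4172 of 18193, either direction). All 5 varying members had a negative difference, with a median of -0.42, whereas 47.7% of the 5173 varying genes were negative, with a median of 0.01. Without the array WT 2, 3 of the 5 were negative with a median of -0.14, against 46.5% of varying genes. Over all 8 members the median difference was -0.08.

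**Figure D1:**
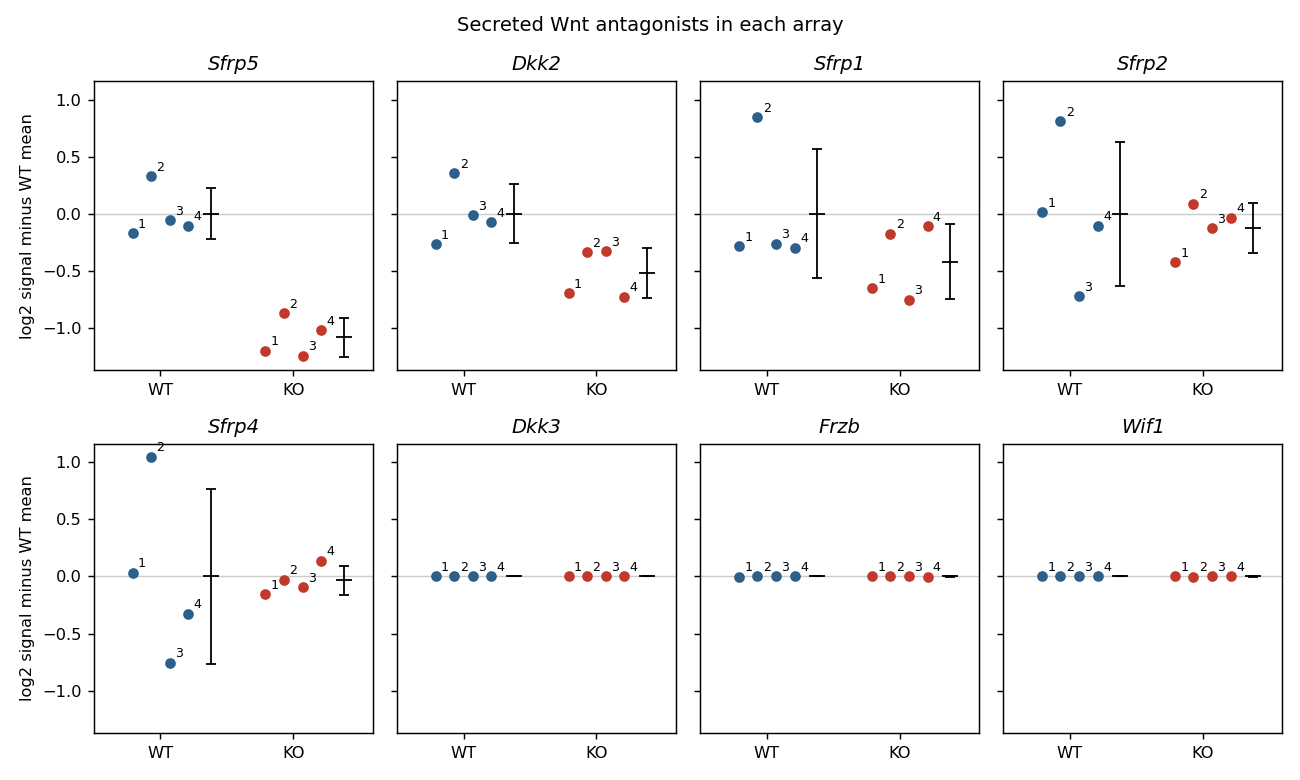
Log2 signal of the 8 genes in each array, minus the WT mean of the gene, for WT (blue) and KO (red) with replicate numbers beside the points and the mean with its SD (n = 4) in black at the right of each group. The KO points of Sfrp5 and Dkk2 all lie below the WT points, the other varying genes overlap, and Dkk3, Frzb and Wif1 lie on a line.

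Sfrp5 encodes an extracellular Wnt-binding protein that adipocytes secrete. Its brightest probe set, 1436075_at, read 7.53, 7.85, 7.48 and 7.71 in KO 1 to 4. The same probe set read 8.56, 9.06, 8.67 and 8.62 in WT 1 to 4. All 4 KO arrays lay below all 4 WT arrays, and the highest KO array was KO 2 while the lowest WT array was WT 1. The means were 7.64 ± 0.17 in KO and 8.73 ± 0.22 in WT (SD, n = 4 each). Sfrp5 thus fell by 1.08 on the log2 scale (SE 0.14), a signal 2.12-fold lower in KO, with limma giving an adjusted p of 0.0229 over all genes and an exact permutation p of 0.0286, the smallest that 4 against 4 arrays allow. Same-numbered arrays differed by -1.03, -1.20, -1.19 and -0.91.

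The call of Sfrp5 depended on the fit, although its direction did not. Sfrp5 passed over all genes where numbers 1 and 2 formed 1 block and numbers 3 and 4 another (limma adjusted p = 0.0380). With the replicate number as a block, its limma adjusted p was 0.0719 over all genes, a fit in which 0 genes passed (0%) although 3703 had an unadjusted p under 0.05, and 0.0148 among varying genes. Leaving out KO 1, KO 3, KO 4, WT 3 or WT 4 in turn also put it above the threshold, with adjusted p values from 0.0502 to 0.0763 and differences from -1.12 to -1.03.

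A second Sfrp5 probe set, 1423023_at, gave a smaller difference in the same direction. It read 6.61, 6.80, 6.85 and 6.85 in KO 1 to 4. In WT 1 to 4 it read 7.12, 7.46, 7.11 and 7.14. The genotypes did not overlap here either. The difference was -0.43 (SE 0.10), which did not pass over all probe sets (limma adjusted p = 0.0814, exact permutation p = 0.0286). The mean of both probe sets differed by -0.76 and passed (limma adjusted p = 0.0278). The size of the Sfrp5 difference therefore rests on which probe set is read, while its sign does not.

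Dkk2, which encodes a ligand of the LRP co-receptors, had a single probe set, 1420512_at. It read 6.06, 6.41, 6.43 and 6.03 in KO 1 to 4 and 6.49, 7.11, 6.74 and 6.68 in WT 1 to 4. Every KO array lay below every WT array, and KO 3 and WT 1 came closest. The means were 6.23 ± 0.22 in KO and 6.75 ± 0.26 in WT (SD, n = 4 each), and the difference of -0.52 (SE 0.17) did not pass over all genes (limma adjusted p = 0.132, exact permutation p = 0.0286). By rank of signal among all probe sets, the KO mean lay at percentile 21.9 and the WT mean at percentile 50.7. Signal over background was not analysed, so how far these values stood above it is not known. Tested among varying genes only, Dkk2 passed in limma without the replicate block (adjusted p = 0.0386) and with it (0.0276). There 12.2% of the 5173 genes passed as lower, or 9.24% with the block. Without WT 2 the difference was -0.40 and the genotypes still did not overlap, as for 17.2% of varying genes in that direction. It then no longer passed among varying genes (limma adjusted p = 0.0702), of which 7.46% passed as lower.

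Sfrp5 and Dkk2 were the 2 of 5 varying members whose genotypes did not overlap, and in both KO was lower. Among all varying genes KO was lower without overlap in 15% and higher without overlap in 18.2%.

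The promoters of these 2 genes are shown because both genes had lower KO arrays throughout; the tissue data do not bear on any site in them. Each sequence is the RefSeq window of GRCm38.p6 from 250 bases before to 50 bases after the annotated start, 5′ to 3′ on the gene's strand. Sfrp5 lies on the minus strand at chr19:42202203-42202502 and Dkk2 on the plus strand at chr3:132085042-132085341. Capitals mark matches to 2 of the motifs searched, the letters GGGCGG of Sp1-type sites and the core promoter letters TATAAA.
Sfrp5: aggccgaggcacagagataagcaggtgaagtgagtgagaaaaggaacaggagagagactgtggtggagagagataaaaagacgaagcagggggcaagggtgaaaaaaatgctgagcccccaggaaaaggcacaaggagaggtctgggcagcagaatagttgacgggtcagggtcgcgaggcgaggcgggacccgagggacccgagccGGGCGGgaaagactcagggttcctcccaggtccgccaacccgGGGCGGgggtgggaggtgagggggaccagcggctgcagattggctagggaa
Dkk2: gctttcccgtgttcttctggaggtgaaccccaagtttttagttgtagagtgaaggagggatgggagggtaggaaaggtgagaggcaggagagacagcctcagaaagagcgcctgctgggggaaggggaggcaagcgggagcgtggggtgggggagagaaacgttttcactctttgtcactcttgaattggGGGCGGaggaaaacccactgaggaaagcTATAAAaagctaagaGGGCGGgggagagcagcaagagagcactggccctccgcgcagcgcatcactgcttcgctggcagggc

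The windows were searched on both strands for 5 motifs, and no matches overlapped in these 2 promoters. The letters GGGCGG occurred at 2 places in each promoter and in 35.7% of all 32851 windows of that length. The letters TATAAA occurred once in Dkk2, with the first base 32 bases before the start, in none of the Sfrp5 window, and in 13.6% of all windows. The letters CTTTGA (TCF and LEF core, found in 16.0% of windows), CATTCC (TEAD core, 14.7%) and the CArG box (1.63%) were in neither window. A match is a description of letters and not a bound site. Promoter windows were matched for 5 of the 8 genes, by symbol.

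Sfrp1, a close relative of Sfrp5, was lower on average, but its genotypes overlapped. Its brightest probe set, 1428136_at, read 7.19, 7.66, 7.09 and 7.73 in KO 1 to 4. It read 7.56, 8.68, 7.58 and 7.54 in WT 1 to 4. WT 2 stood 1 log2 unit or more above every other WT array, and KO 2 and KO 4 lay above the remaining WT arrays. The difference was -0.42 (SE 0.32; limma adjusted p = 0.491, exact permutation p = 0.286). Without WT 2 it was -0.14 (SE 0.19), as the other three WT arrays had a mean of 7.56 ± 0.02 (SD) against 7.42 ± 0.33 in KO.

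Of the 5 Sfrp1 probe sets, 4 varied and 1 (1416594_at) was near constant at 6.94 in both genotypes. The 4 varying probe sets differed by -0.42, -0.42, -0.20 and -0.35, each was highest in WT 2, and 0 of them separated the genotypes. The probe set with -0.20, 1438620_x_at, has probes shared with other transcripts by its suffix. The near-constant probe set was also highest in WT 2, within a range of 0.00099 log2 units. Its near-constant value does not show that Sfrp1 was equal between the genotypes.

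**Figure D2:**
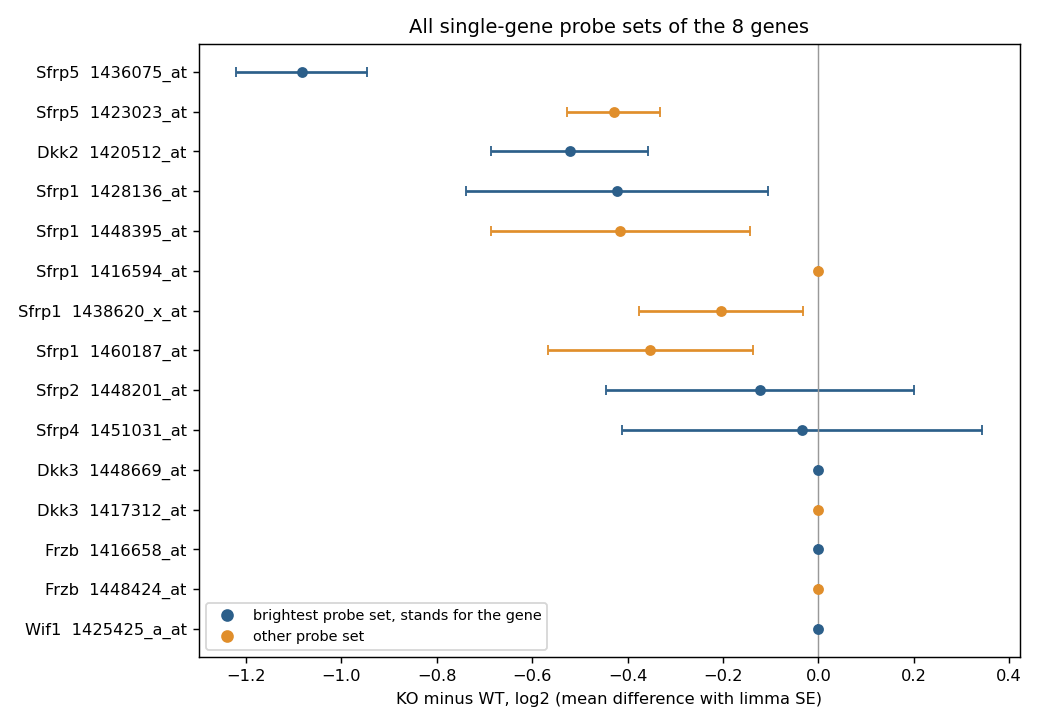
KO minus WT difference in log2 signal (points) with the limma SE (bars) for all 15 single-gene probe sets of the 8 genes, blue for the probe set that stands for the gene and orange for the others. All 9 varying probe sets lie at or below -0.03, and the 6 others lie on 0 at this scale.

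Sfrp2, a secreted Wnt-binding protein of stromal cells, had a single probe set and no difference beyond the spread of the arrays. It read 8.73, 9.24, 9.02 and 9.11 in KO 1 to 4. It read 9.16, 9.96, 8.43 and 9.04 in WT 1 to 4. The highest and the lowest of the 8 values were both WT arrays, WT 2 and WT 3, and the KO arrays lay between them. The difference was -0.12 (SE 0.32; limma adjusted p = 0.867, exact permutation p = 0.743), and without WT 2 it turned to 0.15 (SE 0.22).

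Sfrp4, another Frizzled-related protein, showed the same layout. It read 8.08, 8.20, 8.14 and 8.37 in KO 1 to 4. It read 8.26, 9.28, 7.48 and 7.91 in WT 1 to 4. The KO arrays were close together (SD 0.13) and inside the range of the WT arrays (SD 0.77). The difference was -0.03 (SE 0.38; limma adjusted p = 0.968, exact permutation p = 0.943), and without WT 2 it turned to 0.31 (SE 0.20; limma adjusted p = 0.445).

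WT 2 was the highest of the 8 arrays in 5 of the 5 varying members, against 13.3% of the 5173 varying genes. It was also the highest array for the mean of 12 measured progenitor and fibroblast markers, at 9.84, where the other WT arrays ran from 9.23 to 9.70 and the KO arrays from 9.67 to 9.81. WT 3, the lowest array for Sfrp2 and Sfrp4, was also the lowest for these markers, at 9.23. The marker lists named next had only WT 2 highest or only WT 3 lowest, not both. WT 2 was also the highest array for pericyte and smooth muscle markers (9.03) and for Schwann cell and nerve markers (9.01). In these 2 lists WT 3 was not low (8.99 and 8.94). WT 3 was also the lowest for macrophage markers (8.76) and, by small margins, for T and B cell markers (6.29) and adipocyte markers (12.2). Of the 8 measured T and B cell markers 3 varied, Cd3d, Cd3g and Cd2. The B cell genes Cd79a, Cd79b and Ms4a1 were near constant. For blood endothelium markers (9.18) and mesothelium markers (6.42) WT 3 was instead the highest array. The part of any of these cells in the Sfrp values was not tested. In whole tissue, fewer cells of a type and less RNA per cell cannot be told apart.

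The differences were also read within replicate numbers 1 and 2 and within numbers 3 and 4. Sfrp5 differed by -1.12 in numbers 1 and 2 and by -1.05 in numbers 3 and 4. Dkk2 differed by -0.56 and -0.48. Sfrp1 kept its sign, with -0.69 and -0.15. Sfrp2 differed by -0.58 in numbers 1 and 2 and by 0.33 in numbers 3 and 4, and Sfrp4 by -0.63 and 0.56, in each case without a test of the change between the numbers. What the numbers share is not given in the labels; the mean of 10 skeletal muscle markers parted the arrays by these numbers, with 9.09, 9.86, 9.52 and 9.21 in KO 1, KO 2, WT 1 and WT 2 and 6.42, 7.35, 6.52 and 7.17 in KO 3, KO 4, WT 3 and WT 4. Their part in the Sfrp2 and Sfrp4 values was not tested.

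**Figure D3:**
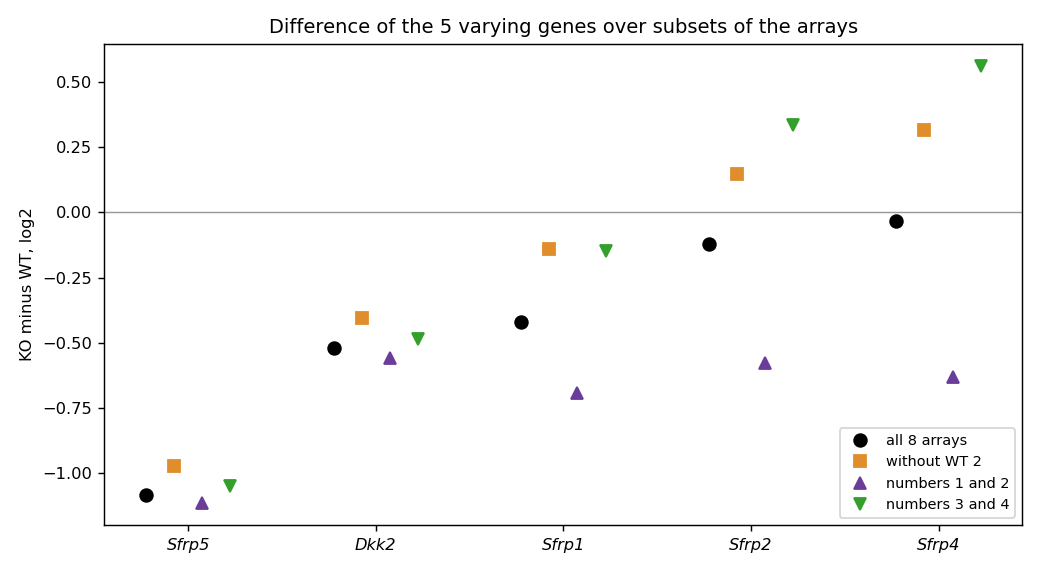
KO minus WT difference in log2 signal of the 5 varying genes over all 8 arrays (circles), without WT 2 (squares), in replicate numbers 1 and 2 (upward triangles) and in numbers 3 and 4 (downward triangles). Sfrp5 stays between -1.12 and -0.97 and Dkk2 between -0.56 and -0.40, whereas Sfrp2 and Sfrp4 lie on both sides of 0.

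Dkk3, Frzb and Wif1 did not give a measurable difference. Dkk3 had 2 probe sets, Frzb 2 and Wif1 1, and all 5 were near constant. The brightest probe sets read 6.58 for Dkk3, 6.31 for Frzb and 5.79 for Wif1 in both genotypes, and the 8 arrays spanned 0.00038, 0.00046 and 0.00057 log2 units. How the near-constant values arose is not known here, so they do not show that these genes are unexpressed or equal between genotypes.

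The genes whose log2 values followed each varying member most closely were found among all varying genes by Pearson r over the 8 arrays, as a description. Because they were chosen in this way, a layout of the arrays like the member's is no separate result. For Sfrp5 these were Myl12a, a regulatory light chain of non-muscle and smooth muscle myosin (r = 0.991, Spearman correlation 0.976), Inpp5k, an inositol polyphosphate 5-phosphatase (r = 0.983, Spearman correlation 0.905), and the actin-binding tropomyosin Tpm4 (r = 0.982, Spearman correlation 0.976). In all 3 the KO arrays lay below the WT arrays, by -0.26, -0.33 and -0.59, a separation found in 15% of all varying genes. For Dkk2 they were the peroxiredoxin Prdx4 (r = 0.960, Spearman correlation 0.976), Vtn, the gene of vitronectin (r = 0.959, 0.905), and Plekhg2, a guanine nucleotide exchange factor (r = 0.953, with the same order of arrays). Their differences were -0.22, -0.21 and -0.31, and Plekhg2 passed (limma adjusted p = 0.0402).

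The genes closest to the other 3 varying members, again chosen for their likeness, overlapped between the genotypes, as these members did. Sfrp1 was followed by the transcriptional coactivator Eya4 (r = 0.965), the subcutaneous fat transcription factor Tbx15 (r = 0.961) and the peptide-amidating enzyme Pam (r = 0.946). Sfrp2 was followed by the metalloprotease Mmp23 (r = 0.965), Ndrg4 (r = 0.962) and Prrx1, a mesenchymal transcription factor (r = 0.954). Sfrp4 was followed by the semaphorin Sema3d (r = 0.979), Mmp23 (r = 0.955) and Ndrg4 (r = 0.954). Their Spearman correlations were lower, at 0.714 to 0.810 for Sfrp1, 0.810 to 0.857 for Sfrp2 and 0.762 to 0.952 for Sfrp4. Sfrp2 and Sfrp4 shared 2 of their 3 closest genes. None of these 7 genes passed, and their differences ran from -0.20 to 0.01.

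**Figure D4:**
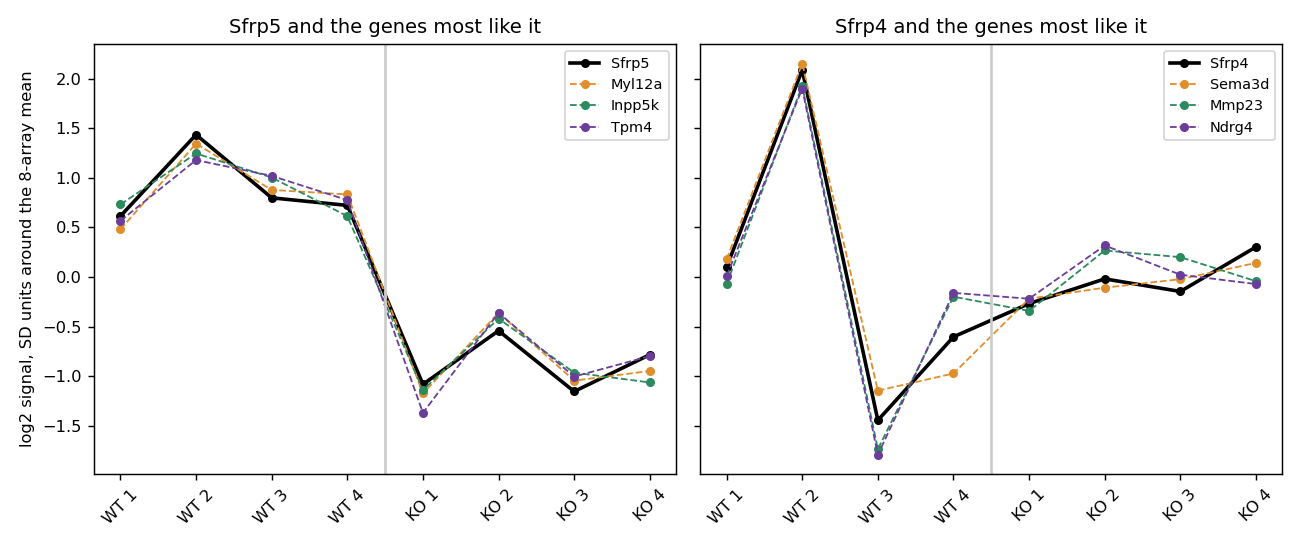
Log2 signal in each array, in SD units around the mean of the 8 arrays, for Sfrp5 (left, black) and Sfrp4 (right, black) and the 3 genes most like each (dashed); the lines join the points of a gene and arrays have no order. Sfrp5 and its like genes part WT from KO, while Sfrp4 and its like genes peak in WT 2 and are lowest in WT 3. The like genes were chosen for their likeness over these same arrays.

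Other cell type markers moved with the genotype beside Sfrp5 and Dkk2. The mean of 8 pericyte and smooth muscle markers ran from 8.52 to 8.78 in KO and from 8.92 to 9.03 in WT, and 1 of them, the smooth muscle actin Acta2, passed as lower, by -1.26. The list did not move as one: 4 of its 7 varying genes were negative, and the pericyte genes Rgs5, Notch3 and Cspg4 differed by 0.12, 0.04 and 0.01. The mean of 8 blood endothelium markers ran from 8.80 to 8.98 in KO and from 8.98 to 9.18 in WT, with 1, the adhesion molecule Esam, passing as lower. The mean of 5 measured of 8 Schwann cell and nerve markers ran from 7.77 to 8.31 in KO and from 8.36 to 9.01 in WT, with 0 passing and 4 at an unadjusted p under 0.05 in limma (22.9% of all genes). The adipocyte marker mean separated the genotypes in the opposite direction, by 0.08, and 2 of its 8 genes passed as higher. That list did not move as one either: 2 of its 7 varying genes were negative, Lep (-0.38) and Lipe (-0.05). For scale, 1.64% of all genes passed as lower and 2.39% as higher. The mean of 12 progenitor and fibroblast markers overlapped between the genotypes, and its difference was 0.15, with 1, the complement regulator Cd55, passing as higher (0.28, limma adjusted p = 0.0296). Macrophage, lymphocyte and skeletal muscle marker means also overlapped. The mesothelium marker mean, of which 1 of 6 genes varied, ran from 6.28 to 6.34 in KO and from 6.34 to 6.42 in WT. The part of these cell types in the Sfrp5 and Dkk2 differences was not tested.

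The rest of the Wnt pathway was read from 6 lists with 97 measured genes, of which 27 varied. Over these lists 2 of 97 genes passed in limma as lower and 0 as higher, where 1.64% and 2.39% of all genes did. An unadjusted limma p under 0.05 was found for 12 (of 97), where 22.9% of all genes had one. These shares of all genes also stand beside the counts of each list below. The median difference of the varying list genes was -0.07. The lists are described in the order inhibitors, ligands, receptors, intracellular components and targets.

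Among 9 other extracellular inhibitors, 3 varied and 0 passed in limma, with 1 at an unadjusted p under 0.05. Sostdc1, a secreted antagonist of Wnt and BMP signals, read 5.98, 6.59, 6.32 and 6.33 in KO 1 to 4 and 6.54, 7.70, 7.40 and 6.84 in WT 1 to 4. The genotypes overlapped by KO 2 and WT 1. The difference of -0.81 (SE 0.28) did not pass over all genes (limma adjusted p = 0.158). Among varying genes it did, at 0.0477, or at 0.0286 with the replicate block, but not without WT 2 (difference -0.62, limma adjusted p = 0.0888). The membrane-bound inhibitor Apcdd1, read by probes shared with other transcripts, differed by -0.07 and Igfbp4, an IGF-binding protein that can also inhibit Wnt signals, by 0.12. Dkk1, Dkk4, Sost and Notum were near constant.

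Among 21 ligands and secretion factors, 4 varied and 1 passed, Porcn, the enzyme that attaches the lipid to Wnt proteins. Porcn read 7.23, 7.36, 7.31 and 7.48 in KO 1 to 4 and 7.77, 7.75, 7.96 and 8.05 in WT 1 to 4. It fell by 0.54 (SE 0.09; limma adjusted p = 0.0349), and the genotypes did not overlap. With numbers 1 and 2 as 1 block and 3 and 4 as another, its limma adjusted p was 0.0316 over all genes. With the replicate block it was 0.0870 over all genes and 0.0218 among varying genes. Leaving out any single array, KO 1 to 4 or WT 1 to 4, also put it above the threshold over all genes (0.0568 to 0.102). Wls, which carries lipid-modified Wnt proteins to the cell surface, ran from 8.98 to 9.23 in KO and from 8.50 to 8.91 in WT, without overlap. Its difference of 0.40 (SE 0.11) did not pass over all genes (limma adjusted p = 0.107), but did among varying genes (0.0309), though not with the replicate block (0.0845). The ligand Wnt2 was 0.47 higher in KO without overlap and did not pass (limma adjusted p = 0.249). Of the 27 varying genes of the 6 lists, KO was lower without overlap in 2 (Porcn and the target Ccn5) and higher in 2 (Wls and Wnt2). Among all varying genes the shares were 15% lower and 18.2% higher. Wnt5a differed by 0.05. The other 17 members of this list, the ligand Wnt10b among them, were near constant.

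Among 17 measured receptors and co-receptors, 6 varied and 0 passed in limma, with 1 at an unadjusted p under 0.05. The smallest p belonged to Fzd6 (-0.29, limma adjusted p = 0.143) and Fzd7 (-0.14, 0.257), both Frizzled receptors. The co-receptor Lrp6 differed by 0.02. Among 9 R-spondins and their receptors, 2 varied and 0 passed in limma (1 at an unadjusted p under 0.05), with the R-spondin receptors Lgr4 at -0.20 (limma adjusted p = 0.216) and Lgr5 at -0.22.

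Among 23 measured intracellular genes of the beta-catenin pathway, 5 varied and 0 passed in limma, with 4 at an unadjusted p under 0.05. These 4 were all near constant. Ctnnbip1, an inhibitor of beta-catenin binding to TCF factors, differed by -0.18, and the transcription factor Tcf7l2 by -0.15. The 2 smallest p belonged to near-constant genes of the beta-catenin destruction complex, Axin1 and Gsk3a, with differences of 0.00034 and 0.00017.

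Among 18 target genes, 7 varied and 1 passed. Ccn5, a matricellular protein also known as a Wnt-inducible gene, read 7.36 to 7.91 in KO and 9.20 to 9.83 in WT. It fell by 1.85 (SE 0.17, limma adjusted p = 0.0134). The adjusted p over all genes was 0.0311 with numbers 1 and 2 as 1 block and 3 and 4 as another. With the replicate block it was 0.0751 over all genes and 0.0148 among varying genes. Leaving out KO 3 put it at 0.0517. The cyclin Ccnd1 differed by -0.35 and passed only among varying genes with the replicate block (limma adjusted p = 0.0482). Axin2, the feedback inhibitor widely used to read beta-catenin activity, was near constant at 7.14 in both genotypes. The varying targets had both signs, with Cd44 at 0.39 and Id2 at 0.28.

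**Figure D5:**
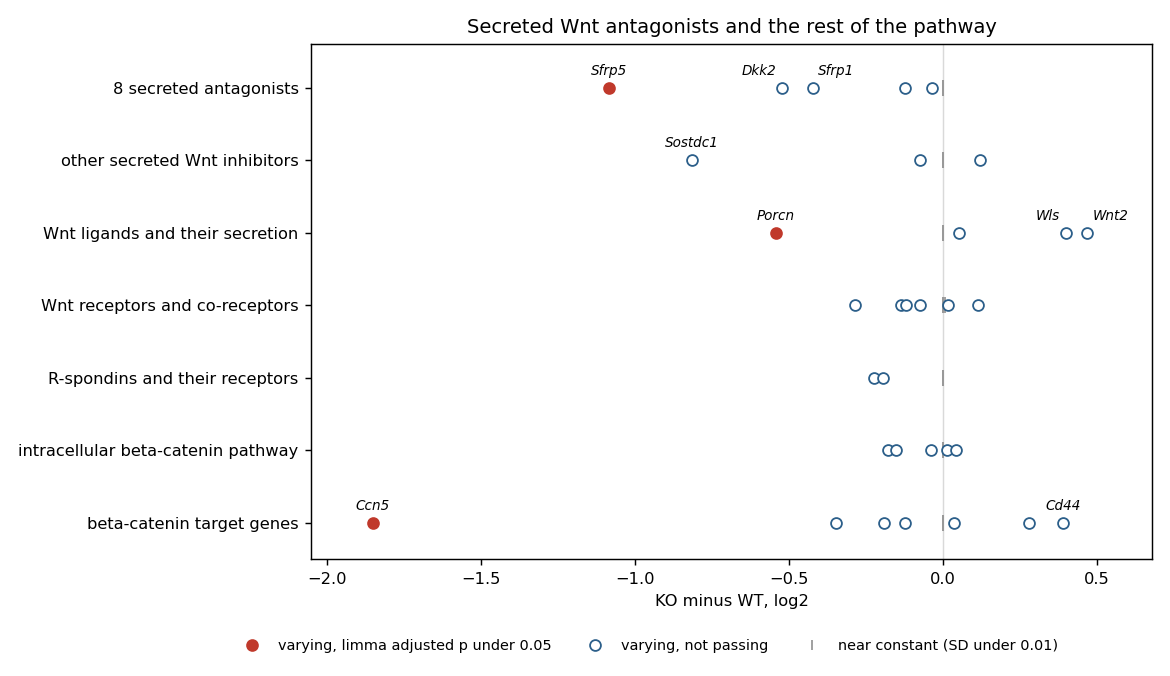
KO minus WT difference in log2 signal of the 8 secreted antagonists (top) and of the measured genes of 6 pathway lists, filled red where limma's adjusted p over all genes was under 0.05, open where a varying gene did not pass, and grey ticks for near-constant genes. Sfrp5, Porcn and Ccn5 are the 3 filled points, at -1.08, -0.54 and -1.85.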

How the data were processed

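Arrays of 4 KO and 4 WT mice were analysed. The authors deposited log2 values of 45101 probe sets; the submitters' processing notes name R 2.14.0. How background, normalisation and summarisation were handled is not stated there. The values, 4.93 to 14.3, show a log2 scale. The platform annotation gave 34945 probe sets 1 gene, 932 several and 9160 none; 64 control probe sets were left out. Gene values (brightest probe set) were compared with limma 3.58.1 in R 4.3.3 (lmFit, eBayes, two-sided) with Benjamini-Hochberg adjustment over all genes. The fit was run on simulated data with independent noise in each array. That simulation had no structure by replicate number, so it cannot show how the fit behaves where arrays share such structure. Exact permutation tests were two-sided. The number of arrays limits the precision.

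Members and lists were chosen with earlier results of these data known. Named genes are the members, passing list genes (at most 4 per list, otherwise the 2 with the smallest p) and the 3 genes most like each varying member; others named were chosen after their values were seen. Of 187 listed genes 177 were measured.

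The main fit did not pair the arrays, and the replicate number was a block in alternative fits only. Such a block was tried because same-numbered KO and WT deviations correlated across genes at 0.315, 0.486, 0.189 and 0.245, all over 0.1. Differently numbered arrays within numbers 1 and 2 or within 3 and 4 also correlated, at 0.107 to 0.364. The data therefore do not single out the same-numbered pairs. The numbers come from the labels, which do not say that same-numbered mice were paired. Values are of the fit without the block unless stated. Alternatives were the replicate block, a block of numbers 1 and 2 against 3 and 4, varying genes only, a brightness filter, averaged probe sets, quantile normalization, another variance model and leaving out each array.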

Additional observations from a re-analysis of the deposited data

Results flagged for a closer look

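In 3 of 54 sets of 4 arrays, 1 array stood far from its group. The sets share the same 8 arrays, so they are not independent, and no rate by chance is set beside them. Sfrp1 was high in WT 2 (8.68, next WT array 7.58). The second Sfrp5 probe set, 1423023_at, was also high in WT 2 (7.46, next WT array 7.14). The mean of T and B cell markers was high in WT 1 (6.64, next WT array 6.31).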

How the results depend on the processing

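Sfrp5 kept its sign in 16 of 16 alternatives (-1.15 to -0.76) and passed in 10 (limma adjusted p 0.00406 to 0.0763); Sfrp1 kept its sign in 16 and Dkk2 in 15 of 15. With each array left out in turn, Sfrp2 ran from -0.36 to 0.15 (without WT 2), and Sfrp4 from -0.29 to 0.31 (without WT 2), with 0.0059 without KO 1. Dkk3 turned to 0.0013 with quantile normalization. The cause was not tested. With the replicate block over all genes, 0 genes, 0 members and 0 pathway genes passed in limma, while Sfrp5 had an unadjusted p of 0.000247. Among varying genes only, 1402 of 5173 genes passed, 633 as lower (12.2%) and 769 as higher. There 2 of the 5 varying members and 3 of the 27 varying pathway genes were lower, and 1 pathway gene was higher (Wls). With the replicate block as well, 2 members and 4 pathway genes were lower, where 9.24% of varying genes passed as lower. A pathway gene was higher, 1 in each case, with the block of numbers 1 and 2 against 3 and 4, the brightness filter and the trended robust variance model (Axin1, 0.00034), and without WT 2 among varying genes (Wls), an alternative chosen after seeing the data. Leaving out each array gave 10 to 253 genes, against 733 with all arrays, 0 to 1 members lower and 0 to 1 pathway genes lower. The counts of members higher stayed at 0 in every alternative run. Signal over background was not analysed here, which limits Dkk2 and the near-constant genes.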
